A study of Rattus norvegicus with 6 samples.

Results

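The genes described here encode 3 chains of the fibrillar collagens (Col1a1, Col1a2 and Col3a1), the matrix glycoprotein fibronectin (Fn1) and lysyl oxidase (Lox). They are 5 of the 26405 genes in the deposited table, taken by their rat Ensembl identifiers ENSRNOG00000003897, ENSRNOG00000011292, ENSRNOG00000003357, ENSRNOG00000014288 and ENSRNOG00000014426 in that order. RNA sequencing had been done on cultured rat astrocytes, neurons and OPCs (oligodendrocyte precursor cells, the proliferating progenitors from which myelinating glia form), with 2 libraries per cell type. Astrocytes and OPCs were passaged 1 time, after 8 days, and sampled 6 days later, while neurons were never passaged and were sampled at 7 days. Each cell type was its own commercial product, so cell type, product and, for neurons, passage and time in culture cannot be told apart. No treatment is named for any group, and the labels give neither the brain region nor the age or strain of the animals. The labels do not say whether the 2 libraries of a cell type came from separate cultures, and p-values therefore reflect the spread of these libraries alone, which may be technical.

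Type I collagen is a triple helix built from the Col1a1 and Col1a2 chains, and type III collagen is built from Col3a1 alone. Both assemble into tensile fibrils, fibronectin forms a network that cells grip through integrins and on which collagen is laid down, and lysyl oxidase is the secreted enzyme that starts the cross-linking of collagen and elastin. In the healthy brain these proteins are largely kept to the meninges and vessel walls, and they are laid down in fibrotic scars after injury.

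A stretch before the annotated start of the Col1a2 gene is shown as the regulatory sequence at hand for the group. RefSeq's promoter table (build GRCr8) matched 1 of the 5 members. The stretch printed is chr4:33518307-33518422 on the plus strand, 116 bases that begin 250 bases before the annotated gene start. Capitals mark, in order, a CCAAT box read on the opposite strand (ATTGG) and a TATA box (TATAAA). The printed stretch was cut a fixed distance past the TATA box, so it ends before the annotated gene start.
Col1a2: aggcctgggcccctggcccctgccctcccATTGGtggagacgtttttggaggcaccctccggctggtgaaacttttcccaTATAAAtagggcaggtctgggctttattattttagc

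The motif search covered CCAAT, the TATA box named above and the GC box GGGCGG, each on both strands over the 300 bases from 250 before to 50 after a gene start. The marked motifs begin 221 and 170 bases before the annotated Col1a2 start and do not overlap each other, and the GC box was not among the letters of this window. Of 33469 rat promoter windows of the same length, 37.5% hold the CCAAT box, 14.2% the TATA box and 33.1% the GC box. These matches are a description of the letters, and no binding was measured.

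All 5 genes were abundant in astrocytes and scarce in neurons and OPCs. Together they took 1.78% and 1.52% of all counts in astrocyte replicates 1 and 2, 0.00294% and 0.00372% in the neuron libraries, and 0.000692% and 0.00051% in the OPC libraries. Total counts ran from 22265917 in OPC replicate 1 to 102861667 in astrocyte replicate 1, and 3 counts correspond to between 0.0328 and 0.115 CPM, the count scaled to the library's size after correction for composition. All 5 genes were among the 18206 that passed the filter on low counts, and all 5 also pass it when the astrocyte libraries are left out. Intervals on single libraries are exact 95% Poisson intervals that cover counting error only. Where a library had 0 counts, the level of 3 counts is given in place of an interval. In such bulk samples, fewer cells that make a transcript and less of it per cell cannot be told apart.

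Col1a1 stood at 4235 and 4799.8 CPM in astrocyte replicates 1 and 2, at 4.06 and 6.11 CPM in the neuron libraries, and at 0.154 and 0.801 CPM in the OPC libraries. The lowest neuron library thus lay above the highest OPC library, and the astrocyte libraries lay far above both. In counts, OPC replicate 1 held 4 Col1a1 reads (interval 0.0419 to 0.394 CPM) and OPC replicate 2 held 37 (0.564 to 1.10 CPM), and these intervals do not overlap.

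Col1a2, the partner chain, stood at 3035 and 2667 CPM in astrocytes, 2.78 and 2.85 CPM in neurons, and 0 and 0.693 CPM in OPCs. The astrocyte and the neuron replicates each lay within 1.14-fold of one another. OPC replicate 1 had 0 Col1a2 counts, in a library where 3 counts correspond to 0.115 CPM, while OPC replicate 2 had 32 counts.

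Col3a1 stood at 933 and 1323 CPM in astrocytes, 1.92 and 3.15 CPM in neurons, and 0.231 and 0.823 CPM in OPCs. As with the type I chains, its higher OPC level was in replicate 2, with 38 counts against 6 in replicate 1.

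Fn1 stood at 13589.7 and 9265 CPM in astrocytes, 15.1 and 23.2 CPM in neurons, and 5.39 and 2.53 CPM in OPCs. By itself it made up 1.08% and 0.774% of all astrocyte counts. Its OPC libraries ran the other way from the collagens, with replicate 1 (140 counts, interval 4.53 to 6.36 CPM) above replicate 2 (117 counts, 2.09 to 3.04 CPM).

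Lox stood at 600.0 and 142 CPM in astrocytes, 0.394 and 0.450 CPM in neurons, and 0.154 and 0.130 CPM in OPCs. Its OPC values rest on 4 and 6 counts, close to the level of 3 counts. The astrocyte replicates lay 4.22-fold apart, a log2 ratio of 2.08, where the SD of that ratio over all tested genes was 0.79. The astrocyte replicates of the other 4 genes lay within 1.47-fold of one another, so Lox was the least even of the 5 between the astrocyte libraries.

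**Figure D1:**
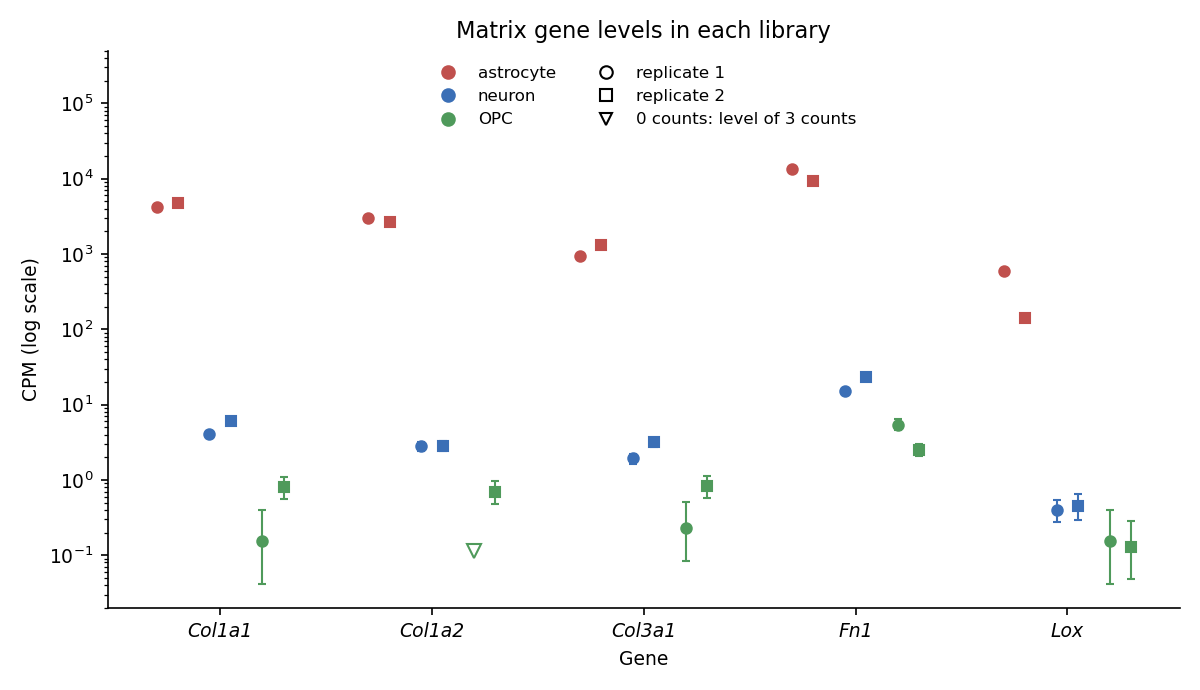
Level of each gene (x axis) in CPM on a log scale (y axis) in the 6 libraries, colored by cell type, with circles for replicate 1, squares for replicate 2 and bars for exact 95% Poisson intervals of counting error. The astrocyte libraries lie between 142 and 13589.7 CPM and no neuron or OPC library is above 23.2 CPM; the open triangle marks the level of 3 counts for Col1a2 in OPC replicate 1, which had 0 counts.

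The first comparison was that of OPCs with astrocytes. All 5 genes were lower in OPCs by edgeR's quasi-likelihood test at an adjusted p under 0.05, a call made in the same direction for 14.9% of all tested genes. Their median log2 fold change was -11.50, beside -0.04 over all 18206 genes. The type I chains had the widest differences of the 5, a log2 fold change of -13.12 ± 1.03 for Col1a1 (SE; n = 2 libraries each, edgeR adjusted p = 0.000535) and of -12.85 ± 1.40 for Col1a2 (edgeR adjusted p = 0.00124). Their SEs overlap, and by limma-voom their order was the other way, at -13.46 for Col1a1 and -14.36 for Col1a2. They ranked 9th and 10th lowest of the 18206 genes by fold change. Fn1 followed at -11.50 ± 0.85 (edgeR adjusted p = 0.000489), Lox at -11.35 ± 0.98 (edgeR adjusted p = 0.000681) and Col3a1 at -10.99 ± 0.85 (edgeR adjusted p = 0.000518), with ranks 38, 46 and 58. Both OPC libraries lay below both astrocyte libraries for each of the 5 genes, as they did for 34.4% of tested genes.

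The size of these differences, though not their call, moved with single libraries. For Col1a1 the log2 fold change moved to -12.46 on omission of OPC replicate 1 and to -14.74 on omission of OPC replicate 2. That of Col3a1 was -12.16 without OPC replicate 2, and that of Fn1 was -12.14 without OPC replicate 1. For Col1a2 it was -12.00 on omission of OPC replicate 1. On omission of OPC replicate 2 it was -20.34, a value set by the prior count, since the other OPC library had 0 counts. For Lox, omitting astrocyte replicate 1 gave -9.85 and omitting astrocyte replicate 2 gave -12.01.

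Neurons were set against the same astrocyte libraries, so this comparison and the one before share their controls. All 5 genes were again lower, at an edgeR adjusted p under 0.05 that was reached in that direction by 15.9% of tested genes. The median of the 5 log2 fold changes was -9.78, beside -0.06 over all genes. Col1a2 stood at -9.98 ± 1.25 (SE; n = 2 libraries each, edgeR adjusted p = 0.00169), Col1a1 at -9.80 ± 0.91 (edgeR adjusted p = 0.000643) and Lox at -9.78 ± 0.90 (edgeR adjusted p = 0.000622). Fn1 stood at -9.22 ± 0.78 (edgeR adjusted p = 0.000516) and Col3a1 at -8.80 ± 0.77 (edgeR adjusted p = 0.000553). These values spanned less than those against OPCs, and their SEs overlap. By fold change the 5 genes ranked 21st (Col1a2), 26th (Col1a1), 28th (Lox), 45th (Fn1) and 65th (Col3a1) lowest of 18206. Omitting astrocyte replicate 1 moved the Lox value to -8.29, and omitting astrocyte replicate 2 moved it to -10.45. Both neuron libraries lay below both astrocyte libraries for all 5 genes, against 36.8% of tested genes.

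**Figure D2:**
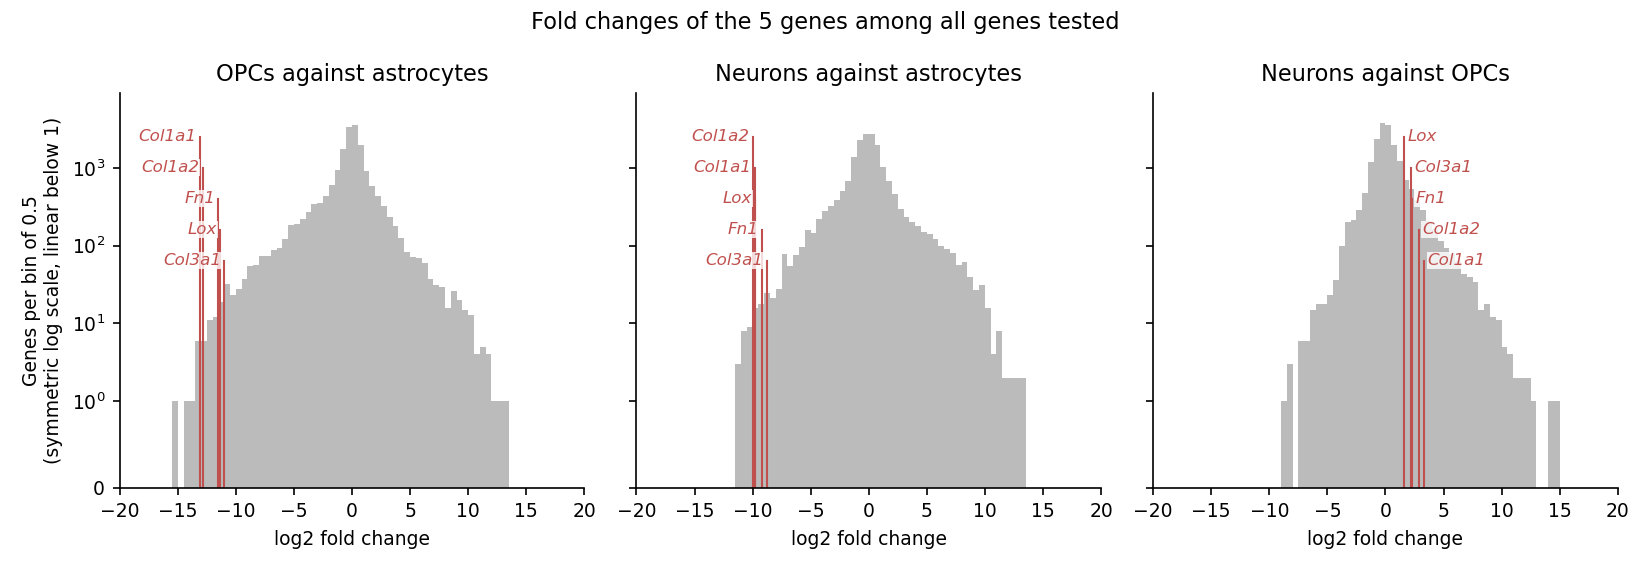
Number of tested genes (y axis, symmetric log scale) by log2 fold change in bins of 0.5 (x axis) for each pair of cell types, with a red line at each of the 5 genes. In both comparisons with astrocytes the 5 genes lie in the low tail, from -13.12 to -10.99 for OPCs and from -9.98 to -8.80 for neurons; between neurons and OPCs they lie from 1.57 to 3.32, where 85.1% to 94.4% of genes are at or below them.

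Neurons and OPCs were then compared with each other. All 5 genes had a higher fitted level in neurons, and for each of them both neuron libraries lay above both OPC libraries, as was the case for 29.7% of tested genes. Of the 5, 2 passed the edgeR test at an adjusted p under 0.05, where 7.73% of tested genes were called higher in neurons. Col1a1 was higher in neurons by a log2 fold change of 3.32 ± 0.72 (SE; n = 2 libraries each, edgeR adjusted p = 0.0296), and Fn1 by 2.28 ± 0.58 (edgeR adjusted p = 0.0479). Col1a2 at 2.87 ± 0.98 (edgeR adjusted p = 0.106), Col3a1 at 2.19 ± 0.62 (edgeR adjusted p = 0.0625) and Lox at 1.57 ± 0.84 (edgeR adjusted p = 0.263) did not pass. With the unadjusted edgeR p under 0.05, 4 of the 5 were higher in neurons, against 16.5% of tested genes.

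Neither call held without an OPC library, and most calls over all tested genes were lost in those fits too. For Col1a1 the log2 fold change was 2.66 (edgeR adjusted p = 0.132) without OPC replicate 1 and 5.01 (edgeR adjusted p = 0.0738) without OPC replicate 2. For Fn1 it was 2.92 (edgeR adjusted p = 0.140) without OPC replicate 1 and 1.82 (edgeR adjusted p = 0.314) without OPC replicate 2. The Fn1 call was also lost without astrocyte replicate 1 (edgeR adjusted p = 0.0747), astrocyte replicate 2 (0.0859 by the same test) and neuron replicate 2 (0.0672). Col3a1 gained a call in 4 other edgeR fits. Its edgeR adjusted p was 0.0463 without neuron replicate 1 (log2 fold change 2.48), 0.0460 with total counts alone, 0.0180 with no low-count filter and 0.0315 in the fit with a replicate block. The log2 fold change of Col1a2 was 4.38 by limma-voom (adjusted p = 0.0663), and its edgeR value was 2.02 on omission of OPC replicate 1 and 10.42 on omission of OPC replicate 2, the latter set by the prior count. By DESeq2, Col1a2 (adjusted p = 0.00534) and Col3a1 (adjusted p = 0.00205) were called as well. Lox was not called under any alternative. Over all alternatives the adjusted p ran from 2.44e-06 to 0.132 for Col1a1, from 0.000136 to 0.314 for Fn1, from 0.00534 to 0.210 for Col1a2 and from 0.00205 to 0.236 for Col3a1.

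**Figure D3:**
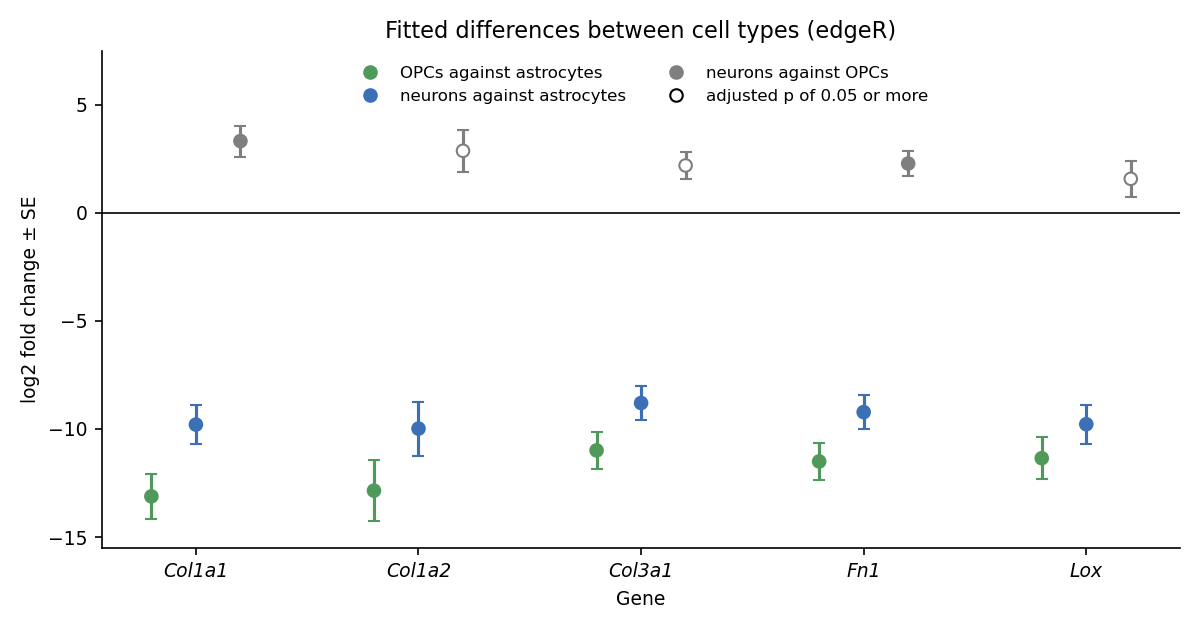
Fitted log2 fold change (y axis) with its SE for each gene (x axis) in the 3 pairs of cell types, filled where the edgeR adjusted p was under 0.05. Every value against astrocytes is filled and at -8.80 or lower, and between neurons and OPCs Col1a1 (3.32) and Fn1 (2.28) are filled.

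Set against the astrocyte mean of the same gene, the neuron means were 0.112% for Col1a1, 0.0988% for Col1a2, 0.225% for Col3a1, 0.168% for Fn1 and 0.114% for Lox. The highest of these means was that of Col3a1, and the highest single neuron library was replicate 2 for the same gene, at 0.279%. The OPC means were 0.0106% for Col1a1, 0.0122% for Col1a2, 0.0467% for Col3a1, 0.0346% for Fn1 and 0.0382% for Lox. Of the 2188 tested genes with an astrocyte mean of at least 100 CPM, 94 (4.3%) had neuron and OPC means that were both under 1% of it, and all 5 genes were among them. These limits of 100 CPM and 1% were chosen after the values were seen, and the figures are given as a description.

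**Figure D4:**
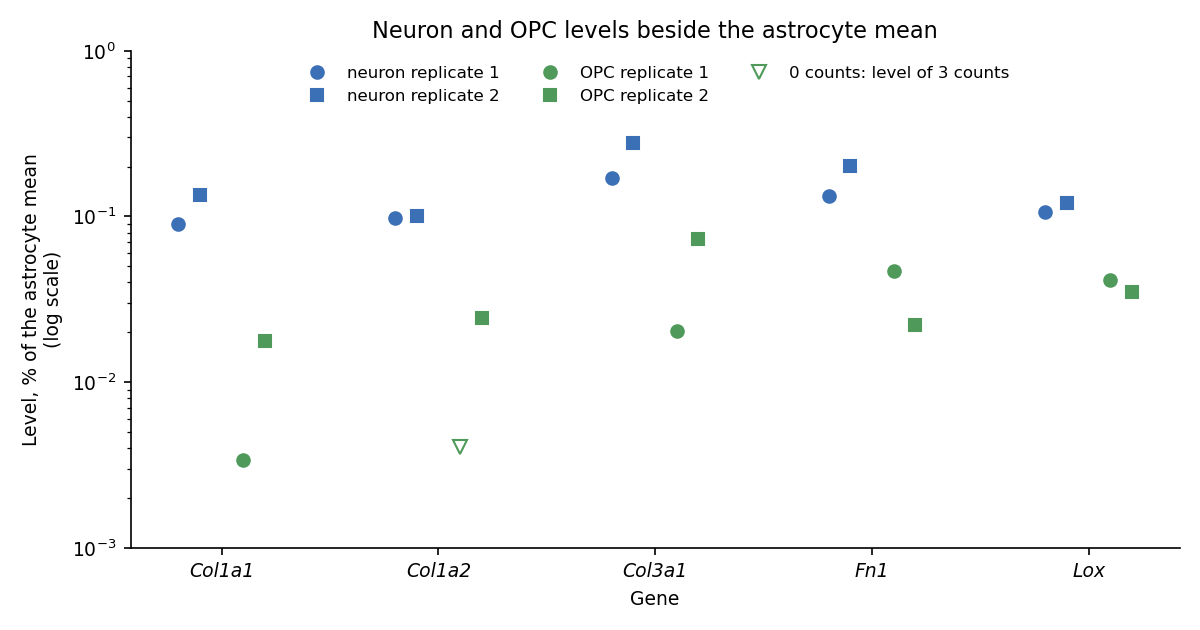
Level in each neuron and OPC library as a percentage of the astrocyte mean of the same gene (y axis, log scale) for the 5 genes (x axis), with an open triangle at the level of 3 counts where a library had 0 counts. Neuron libraries lie between 0.0898% and 0.279%, and OPC libraries with counts between 0.00341% and 0.0729%, below the neuron libraries for each gene.

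Ratios of counts between genes within a library do not depend on the scaling of libraries. Gene lengths were not used, so a ratio is read only from library to library and not as a ratio of transcript levels. The ratio of Col1a1 to Col1a2 counts, the chains of type I collagen, was 1.40 and 1.80 in astrocytes, 1.46 and 2.14 in neurons and 1.16 in OPC replicate 2. The exact binomial interval of the last was 0.701 to 1.92. The ranges of astrocytes and neurons overlapped, and in both cell types replicate 2 had the higher ratio.

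The ratio of Col1a1 to Col3a1 counts parted the cell types more. It was 4.54 and 3.63 in astrocytes, 2.11 (interval 1.76 to 2.54) and 1.94 (1.62 to 2.33) in neurons, and 0.667 (0.138 to 2.81) and 0.974 (0.602 to 1.57) in OPCs. Both astrocyte libraries thus lay above both neuron libraries, and both of these above both OPC libraries, although the wide interval of OPC replicate 1 reaches into the neuron range. Relative to type III, the type I chain Col1a1 took the largest share of counts in astrocytes.

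The ratio of Fn1 to Col1a1 counts was 3.21 and 1.93 in astrocytes, 3.73 and 3.79 in neurons, and 3.16 in OPC replicate 2. OPC replicate 1 stood apart at 35 (interval 13.4 to 130), from 140 Fn1 and 4 Col1a1 counts. Its collagen counts were low while its Fn1 level was the higher of the 2 OPC libraries.

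The ratio of Lox to Col1a1 counts was 0.142 and 0.0296 in astrocytes, 0.0970 and 0.0737 in neurons, and 1.0 and 0.162 in OPCs. The neuron values lay between the values of the 2 astrocyte libraries. The value of OPC replicate 1 rests on 4 counts of each gene, with an interval of 0.186 to 5.37.

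**Figure D5:**
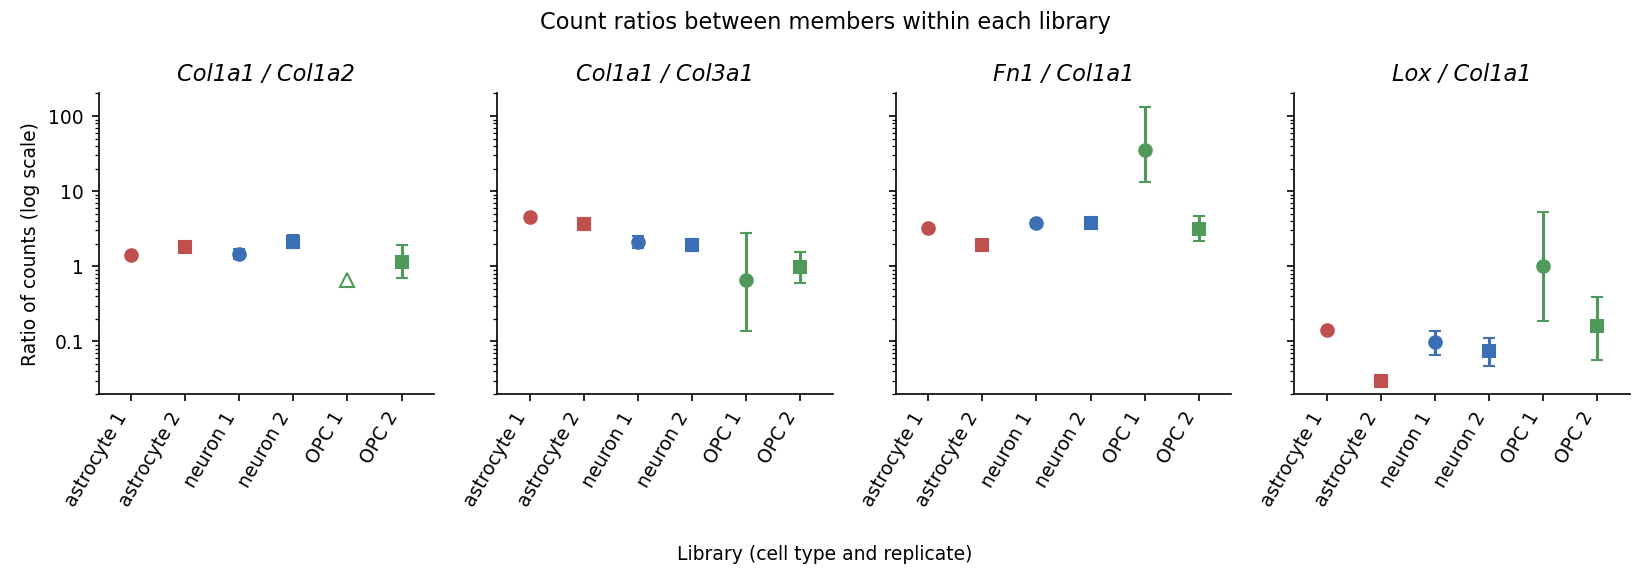
Ratio of counts between pairs of the 5 genes (y axis, log scale) within each of the 6 libraries (x axis), with exact 95% binomial intervals of counting error as bars. Col1a1 to Col3a1 runs from 4.54 in astrocytes to 0.667 in OPCs, and Fn1 to Col1a1 stands at 35 in OPC replicate 1; the open triangle is the lower limit, 0.660, where Col1a2 had 0 counts.

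Replicates of a cell type differed by gene. In neurons Col1a1 was 1.51-fold, Fn1 1.53-fold and Col3a1 1.64-fold higher in replicate 2. Col1a2 and Lox lay within 1.14-fold between the neuron replicates, with overlapping counting intervals, and as shares of all counts both were slightly higher in replicate 1. In OPCs Col1a1 was 5.21-fold and Col3a1 3.56-fold higher in replicate 2, and Fn1 was 2.13-fold higher in replicate 1. In astrocytes Col1a1 and Col3a1 were higher in replicate 2, while Col1a2, Fn1 and Lox were higher in replicate 1.

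Likeness between genes was measured as the root mean square difference of log2 CPM over the 6 libraries after each gene's own mean was removed, so that a value of 0 is the same pattern. Col1a1 was the gene most like Col1a2 of 18205 others, at 0.73, and Col1a2 ranked 2nd among the genes most like Col1a1. Fn1 and Lox also lay close, at 0.68, where Lox ranked 5th among the genes most like Fn1 and Fn1 ranked 8th among those most like Lox. Col1a2 and Lox were the least alike pair, at 2.07, with Lox 39th among the genes most like Col1a2 and Col1a2 321st among those most like Lox. The gap between astrocytes and the other cells enters all of these values, which are given as a description. They were computed with a prior count of 2 only, which weighs on low values. Such values include the 0 Col1a2 and 4 Col1a1 counts of OPC replicate 1 and the 4 and 6 OPC counts of Lox.

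Outside the 5 genes, the gene most like Col1a1 among those with a mean of at least 10 CPM was ENSRNOG00000006723, at 0.65. It stood at 534 and 291 CPM in astrocytes, 0.722 and 1.26 CPM in neurons, and 0 and 0.152 CPM in OPCs. The gene most like Fn1 was ENSRNOG00000010105, at 0.64, with 522 and 524 CPM in astrocytes, 0.514 and 0.450 CPM in neurons, and 0.192 and 0.195 CPM in OPCs. With a prior count of 0.5 in place of 2, other genes came first for both.

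The reference table paired 0 of the 26405 identifiers with a symbol, so the cell type labels were not checked against marker genes, and the other collagens, processing enzymes, integrins and cross-linking enzymes were not analysed here. Whether cells of another type in a culture bear on the levels above was not tested.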

How the data were processed

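The table deposited by the authors gave 1 raw count for each gene in each of the 6 libraries. Per the labels' protocols, 250 ng of kit-purified RNA from each sample went to a sequencing core, which used Illumina libraries and a HiSeq instrument. For the aligner, counting tool, genome build, annotation and use of strand, the answer is not given in the sources used here. Reads shared with similar genes, such as other collagens, or with genes on the opposite strand may therefore be counted in ways that cannot be told apart. Each column name equals the description of a single sample, and 0 columns stayed unused. Symbols of the 5 members came with the rule that defines them.

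Tests used edgeR 4.0.16 in R 4.3.3 on all 6 libraries. Genes were kept by filterByExpr (minimum count 10, minimum total 15), which left 18206, and TMM factors ran from 0.794 to 1.21. The quasi-likelihood fit (robust, cell type as the only factor) left 3 residual degrees of freedom. P-values were adjusted over all tested genes by Benjamini-Hochberg, with a threshold of 0.05, and each SE is the log2 fold change divided by the square root of its F value. CPM used TMM-scaled sizes of the tested genes. The steps were run on simulated data for the comparisons with astrocytes only, with planted changes far smaller than the differences from astrocytes reported here. Neurons against OPCs was not tested in that way.

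Named genes were the 5 members and, by the likeness rule, at most 2 identifiers. Planned gene lists and cell type markers could not be matched and were not tested. The members and lists were chosen with earlier results of these data known. Alternatives were DESeq2 1.42.0, voom of limma 3.58.1, scaling by RLE or by total counts, no low-count filter, only the 4 libraries compared, the replicate number as a block, a prior count of 0.5 for likeness, and each library left out in turn.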

Additional observations from a re-analysis of the deposited data

How the results depend on the processing

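For OPCs against astrocytes and for neurons against astrocytes, all 65 values of the 5 genes under 13 alternatives in each comparison stayed lower than in astrocytes with an adjusted p under 0.05. Between neurons and OPCs, 52 of 65 values kept their side of the threshold, 7 lost a call, 6 gained one and 0 reversed. The gained calls were those of Col3a1 with total counts alone (2.25), with no low-count filter (2.17), with the replicate block (2.31) and without neuron replicate 1, and by DESeq2 those of Col3a1 (2.24) and Col1a2 (2.99). DESeq2 called 4 of the 5 genes between neurons and OPCs, against 2 by edgeR, all of them higher in neurons. Genes called in either direction numbered 4031 by DESeq2 and 2260 by edgeR. Of the latter, 1407 (7.73% of tested genes) were higher in neurons, and the matching DESeq2 share is not given here.

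Fits that left out each library in turn take the spread of the lone remaining library from the other groups. They gave log2 fold changes between neurons and OPCs of 2.66 to 5.01 for Col1a1, 2.02 to 10.42 for Col1a2, 1.62 to 3.43 for Col3a1, 1.82 to 2.92 for Fn1 and 1.42 to 1.68 for Lox. The upper Col1a2 value rests on 0 OPC counts and depends on the prior count. Between neurons and OPCs, fewer of the 5 genes were called than in the main fit when either OPC library was left out. The same held for the tested genes as a whole, so this loss is not particular to the 5 genes. Genes called in all numbered 116 to 2759 between neurons and OPCs, 2182 to 5831 between OPCs and astrocytes and 3306 to 5996 between neurons and astrocytes. The cause was not tested.

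With total counts alone as the scale, the median over all genes went from -0.04 to 0.39 (log2) for OPCs against astrocytes and from -0.06 to 0.40 for neurons against astrocytes. The share of calls that were lower then went from 58.4% to 41.4% and from 52.3% to 33.8%. The 5 genes stayed lower in both.

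With the replicate block, 3 of the 5 genes were called between neurons and OPCs and all 5 in each comparison with astrocytes. Calls over all 18206 genes, in either direction, numbered 2445 for neurons against OPCs. They numbered 4831 for OPCs against astrocytes and 6467 for neurons against astrocytes. Deviations of libraries with the same number correlated across genes at 0.147 to 0.292, and the labels do not say what a number marks, so whether the numbers pair the libraries is not known. Low counts limit the precision of the OPC values, with 0 to 6 counts for each collagen chain and Lox in OPC replicate 1.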
